A study of Mus musculus with 12 samples.

Results

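The 50 genes described here encode the chemokines and chemokine receptors of the mouse array. They were taken by name, as symbols that begin with Ccl, Cxcl, Ccr or Cxcr and a digit, together with Cx3cl1, Cx3cr1, Xcl1 and Xcr1. Of the 18194 genes with a value, 33 were ligands and 17 were receptors. The ligands comprised 11 monocyte-attracting and inflammatory CC chemokines, 7 other CC chemokines, 13 CXC chemokines and 2 of the CX3C and XC classes. The receptors comprised 10 of the CC class, 5 of the CXC class and 2 of the CX3C and XC classes.

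Chemokines are small secreted proteins that guide cells along concentration gradients, and they are grouped by the spacing of their first cysteines. They act through receptors with G proteins on leukocytes and some stromal cells, and one receptor often binds several ligands. In fat tissue the family is best known for the recruitment and positioning of monocytes and macrophages in obesity, with Ccl2 and its receptor Ccr2 as the best-studied pair. Homeostatic members such as Cxcl12, Cxcl13 and the Ccr7 ligands instead place lymphocytes and progenitor cells within tissues.

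Total RNA was measured on 12 arrays in 6 groups of 2, lettered a and b, and the series title asks whether blockade of TGF-beta and Smad3 signalling protects from obesity and diabetes. Wild-type C57BL/6 mice received a regular diet (RD) or a high fat diet (HFD) with 55% fat, and mice labelled Smad3-/- received the same diets. The Smad3-/- mice were of mixed C57BL/6 and NIH Black Swiss strains, so genotype and strain cannot be told apart. In a second experiment, diet induced obese (DIO) mice labelled C57J/B6 received control IgG (13C4) or an antibody against TGF-beta (1D11), injected intraperitoneally 3 times a week for 8 weeks. All mice of this second experiment were obese from the diet, so it holds no lean group. The labels give no tissue and no age, and nothing in them states that the 2 arrays of a group are 2 different mice. The p-values therefore measure the spread between arrays, which may be technical.

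Values are log2 expression, and a level is the value of a gene on an array whereas a difference is between group means. Array medians were 6.32 to 6.39 in the 8 diet and genotype arrays and 6.03 to 6.04 in the 4 antibody arrays, with wider spreads in the latter, so levels were not compared between the experiments. Adipoq (adiponectin, a hormone of fat cells) lay between 13.01 and 14.18 on all arrays. The Smad3 probe set with the highest level read 8.86 to 8.95 on wild-type arrays and 9.03 to 9.17 on arrays labelled Smad3-/-, with a difference of 0.23 on RD (adjusted p = 0.117) and 0.17 on HFD (adjusted p = 0.409). The other 2 Smad3 probe sets also showed no loss on the arrays labelled Smad3-/-, at 5.88 to 6.31 against 5.68 to 6.03 and at 5.11 to 5.43 against 5.11 to 5.54. The position of these probes in the gene, and of its disruption, is not known here, so these values check nothing about the genotype. The groups are therefore named by their label throughout. Genes of the epididymis and of skeletal muscle differed widely between groups. The summed linear level of 9 epididymis genes was 63435 to 65250 on RD arrays labelled Smad3-/- against 668 to 739 on wild-type RD arrays, and that of 15 skeletal muscle genes was 40012 to 40331 on anti-TGF-beta arrays against 2888 to 2998 on IgG arrays.

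The promoters of Ccl6, Ccl9 and Ccl8 are shown because the first pair had the largest genotype and diet differences of the family and Ccl8 had the largest antibody difference of the family. Each runs from 250 bases before to 50 bases after the gene's start in RefSeq on GRCm38.p6, written 5′ to 3′ on the gene's strand. Ccl6 is at chr11:83593038-83593337 (minus strand), Ccl9 at chr11:83578587-83578886 (minus strand) and Ccl8 at chr11:82114935-82115234 (plus strand). Capitals in Ccl6 and Ccl9 mark the stretch in which the pair align best, and capitals in Ccl8 mark its match to the PU.1 core GAGGAA, which lies on the opposite strand.
Ccl6: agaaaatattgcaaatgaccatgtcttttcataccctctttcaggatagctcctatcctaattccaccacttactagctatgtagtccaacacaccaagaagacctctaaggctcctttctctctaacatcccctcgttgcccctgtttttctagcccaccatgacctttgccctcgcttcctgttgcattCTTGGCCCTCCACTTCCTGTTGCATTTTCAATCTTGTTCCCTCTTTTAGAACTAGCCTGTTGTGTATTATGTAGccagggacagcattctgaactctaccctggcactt
Ccl9: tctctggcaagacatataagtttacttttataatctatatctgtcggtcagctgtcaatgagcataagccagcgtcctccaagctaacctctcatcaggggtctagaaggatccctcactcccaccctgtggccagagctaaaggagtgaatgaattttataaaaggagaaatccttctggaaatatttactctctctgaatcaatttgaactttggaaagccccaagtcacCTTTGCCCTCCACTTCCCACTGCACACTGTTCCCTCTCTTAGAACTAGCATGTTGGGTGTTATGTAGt
Ccl8: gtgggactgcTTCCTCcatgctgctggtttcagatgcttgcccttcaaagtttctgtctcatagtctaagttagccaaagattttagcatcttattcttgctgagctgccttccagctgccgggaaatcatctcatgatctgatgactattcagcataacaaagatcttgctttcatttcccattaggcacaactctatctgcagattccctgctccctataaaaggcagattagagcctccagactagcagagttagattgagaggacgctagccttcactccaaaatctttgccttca

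The aligned stretch of Ccl6 and Ccl9 held 67 paired bases, of which 58 were identical (86.6%). By alignment score it ranked 4 of the 666 pairs among the 37 members with a promoter in the table, behind the 3 pairs formed by Cxcl1, Cxcl2 and Cxcl3. The PU.1 core was found in 13 of these 37 members, against 28.3% of all 32851 promoter windows, and the Smad core GTCTG in 22 members, against 49.6% of windows. The NF-kappaB consensus was found in 9 members (4.51% of windows) and the AP-1 motif TGANTCA in 8 members (7.81% of windows). Both strands were searched, each motif was counted on its own, and members can have more than 1 window. Ccl9 held a match to the NF-kappaB consensus and to AP-1, whereas Ccl6 held none of the 4 motifs. Ccl8 held a match to the PU.1 core, marked above, and a match to the Smad core, which is not marked. These matches describe letters in the windows and no binding was measured.

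Across the family, 22 members passed the test (limma, adjusted p under 0.05 over all genes) in at least 1 of the 5 comparisons of 2 groups, and 28 passed in none. Ccl6 and Cxcl12 passed in all 5, Ccl9 in 4 and Ccl7 in 3. Standard errors of the differences were 0.11 to 0.18, and of the interaction 0.15 to 0.25. The 28 members that passed nowhere had differences between -0.33 and 0.36. By level, 18 members lay under the array median on every diet and genotype array and 24 lay over it on every one. In the antibody experiment 24 lay under it on every array and 22 over it. The array median is that of all probe sets, so these counts do not mark the family as dim.

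With HFD in wild type, 1 of 50 members rose (4.69% of all genes did) and 3 fell (6.11% of all genes). With HFD in mice labelled Smad3-/-, 6 members rose (11.5% of all genes) and 2 fell (5.82%). Against wild type, arrays labelled Smad3-/- had 5 members higher on RD (8.4% of all genes) and 5 lower (15.6%), and 2 members higher on HFD (4.74%) and 2 lower (6.05%). The interaction, which is the HFD difference in mice labelled Smad3-/- minus that in wild type, was above 0 for 6 members (12% of all genes) and below 0 for 4 (6.77%). With anti-TGF-beta, 4 members rose (11.7% of all genes) and 11 fell (12.6%). Counts over the whole family were therefore near the background in most comparisons, and the largest departure was the 22% of members that fell with the antibody. The comparisons within the diet and genotype experiment share arrays, so their counts are not independent of each other.

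The share of higher among called members moved by over 10 percentage points with the array scaling in 3 comparisons. Quantile normalization over all arrays gave 2 members up and 2 down for HFD in wild type and 7 up and 4 down for HFD in mice labelled Smad3-/-. Centring the array medians gave 7 up and 1 down for the latter, and 6 and 2 for the interaction.

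**Figure D1:**
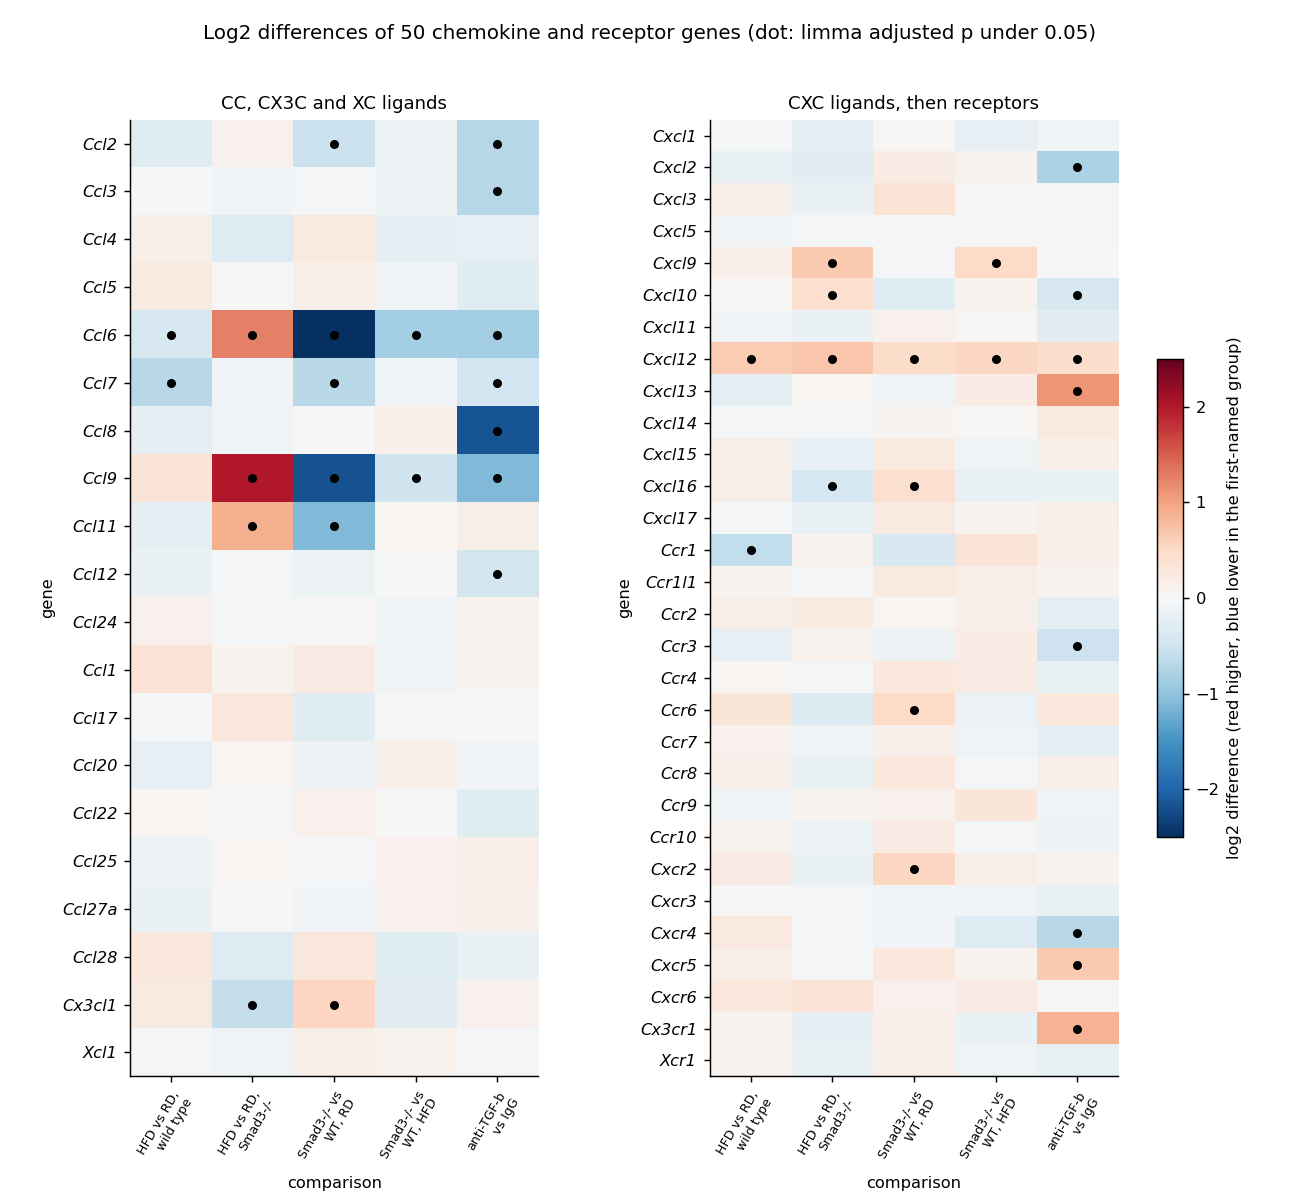
Log2 differences (colour, red higher and blue lower with HFD, with the Smad3-/- label or with anti-TGF-beta) of the 50 members in the 5 comparisons of 2 groups, with ligands and receptors on the vertical axes and a dot where the limma adjusted p was under 0.05. Ccl6 and Cxcl12 carry a dot in all 5 columns, and the antibody column holds 15 dots, 11 of them on blue cells.

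Among the 11 monocyte-attracting and inflammatory CC ligands, 7 (63.6%, against 12.6% of all genes) fell and none rose with anti-TGF-beta (median difference -0.48; the median over all genes was near 0). On RD, 5 (45.5%, against 15.6% of all genes) were lower and none higher with the Smad3-/- label than in wild type (median -0.13, against 0.04 over all genes). This group supplied 7 of the 11 members that fell with the antibody. Ccl6 and Ccl9, ligands of Ccr1 that are made largely by myeloid cells, had the largest genotype and diet differences of the family.

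Ccl6 read 9.67 and 9.63 on the wild-type RD arrays and 7.30 and 6.98 on the RD arrays labelled Smad3-/-. On HFD it read 9.09 and 9.39 in wild type and 8.33 and 8.47 on arrays labelled Smad3-/-. The RD arrays labelled Smad3-/- were thus the lowest of the 8, by more than the gap within any pair of arrays. The genotype difference was -2.51 ± 0.12 (SE, 2 arrays a side; 5.69-fold; adjusted p = 5.49e-16) on RD and -0.84 ± 0.12 (adjusted p = 5.06e-06) on HFD. HFD raised Ccl6 by 1.26 ± 0.12 in mice labelled Smad3-/- (adjusted p = 2.06e-09), and in wild type it fell by 0.41 ± 0.12 (adjusted p = 0.0176). The wild-type decrease lost its call without WT_RD array a (-0.39, adjusted p = 0.128), WT_RD array b (-0.43, adjusted p = 0.0746) or WT_HFD array a (-0.26, adjusted p = 0.321). The interaction of 1.67 ± 0.16 passed (adjusted p = 6.14e-09).

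Ccl9 read 9.60 and 9.70 in wild type on RD and 7.46 and 7.48 on RD arrays labelled Smad3-/-. On HFD it read 9.84 and 10.11 in wild type and 9.40 and 9.56 on arrays labelled Smad3-/-. As for Ccl6, the RD arrays labelled Smad3-/- lay below the other 6. Ccl9 was lower by genotype on RD (-2.18 ± 0.11, 4.53-fold, adjusted p = 1.99e-15) and by a smaller amount on HFD (-0.49 ± 0.11, adjusted p = 0.00181). The HFD call was lost without WT_HFD array b (-0.36, adjusted p = 0.0665) or KO_HFD array a (-0.41, adjusted p = 0.0583), KO being the label Smad3-/-. HFD raised Ccl9 by 2.01 ± 0.11 (4.03-fold, adjusted p = 2.05e-14) in mice labelled Smad3-/-, and the difference of 0.32 ± 0.11 in wild type had an adjusted p of 0.051. Its interaction was 1.69 ± 0.15 (adjusted p = 1.06e-09).

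With anti-TGF-beta, Ccl6 went from 12.01 and 11.96 on the IgG arrays to 11.09 and 11.13 (-0.87 ± 0.12, 1.83-fold, adjusted p = 1.26e-06). Ccl9 went from 11.64 and 11.72 to 10.61 and 10.53 (-1.11 ± 0.11, 2.17-fold, adjusted p = 4.07e-09). Neither gene overlapped between the antibody groups. Both genes have a second probe set of their own, and it differed in the same direction, with -0.90 for Ccl6 and -1.47 for Ccl9 in this comparison. On RD by genotype the second probe sets gave -1.66 for Ccl6 and -1.83 for Ccl9. Their interactions were 1.29 and 1.39, and both passed the test over all probe sets. The Ccl9 and Ccl6 genes are neighbours on chromosome 11, at chr11:83572917-83578636 and chr11:83587886-83593087.

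Ccl8, an inflammatory chemokine of the monocyte chemoattractant group, had the largest antibody difference of the family. It read 9.04 and 9.19 on the IgG arrays and 6.94 and 6.97 on the anti-TGF-beta arrays, so it fell by 2.16 ± 0.12 (4.46-fold, adjusted p = 4.85e-14). On the diet and genotype arrays it stayed between 7.40 and 7.78 and passed in no comparison, with differences from -0.23 to 0.12. Ccl8 is 1 of 5 genes in the cluster at chr11:82035577-82116799 that also holds Ccl2, Ccl7, Ccl11 and Ccl12.

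Ccl2, the main attractant of Ccr2-bearing monocytes, read 7.74 and 7.69 on IgG and 7.01 and 6.98 on anti-TGF-beta (-0.72 ± 0.14, 1.65-fold, adjusted p = 0.000314). On RD it read 7.10 and 6.89 in wild type and 6.70 and 6.23 on arrays labelled Smad3-/-. That genotype difference of -0.53 ± 0.14 passed (adjusted p = 0.00579) without overlap of the arrays. It lost its call without WT_RD array a (-0.43, adjusted p = 0.0991) or KO_RD array b (-0.30, adjusted p = 0.221). Neither HFD difference passed, at -0.31 in wild type (adjusted p = 0.216) and 0.10 in mice labelled Smad3-/- (adjusted p = 0.771). Its interaction of 0.40 did not pass (adjusted p = 0.196) but did without KO_RD array a (0.64, adjusted p = 0.0256).

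Ccl7, another Ccr2 ligand, was dim on the diet and genotype arrays, with every value under the array medians. Among these arrays it was highest on the wild-type RD pair, at 6.20 and 6.26. It read 5.54 and 5.55 on wild-type HFD arrays, 5.48 and 5.58 on RD arrays labelled Smad3-/-, and 5.28 and 5.63 on HFD arrays labelled Smad3-/-. HFD in wild type lowered it by 0.69 ± 0.15 (adjusted p = 0.00148), and on RD it was lower with the Smad3-/- label by 0.70 ± 0.15 (adjusted p = 0.000532). Both calls held when any 1 array was left out. Among the diet and genotype arrays the wild-type RD pair, the highest for Ccl7, also stood apart in the 3′ to 5′ control signals and the immediate early genes given below, whose part in the Ccl7 differences was not tested. The interaction of 0.61 ± 0.21 (adjusted p = 0.039) lost its call in 7 of the 8 fits that left out an array, the exception being KO_HFD array a, with adjusted p of up to 0.263 without KO_HFD array b. With anti-TGF-beta Ccl7 went from 6.25 and 6.06 to 5.63 and 5.72 (-0.48 ± 0.15, adjusted p = 0.0166). That call was lost without DIO_IgG array a (-0.38, adjusted p = 0.147) or DIO_aTGFb array a (-0.44, adjusted p = 0.0957).

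Ccl11, or eotaxin, which attracts eosinophils through Ccr3, read 6.47 and 6.49 in wild type and 5.40 and 5.35 on arrays labelled Smad3-/- on RD (-1.10 ± 0.13, 2.15-fold, adjusted p = 9.27e-08). On HFD the values overlapped, at 6.13 and 6.33 in wild type and 6.20 and 6.33 on arrays labelled Smad3-/-. HFD raised it in mice labelled Smad3-/- by 0.89 ± 0.13 (adjusted p = 5.35e-06), and the interaction was 1.14 ± 0.18 (adjusted p = 2.11e-05). With anti-TGF-beta it read 8.66 and 8.60 against 8.44 and 8.51 on IgG, a difference of 0.15 that did not pass (adjusted p = 0.448). Its neighbours Ccl2, Ccl7, Ccl8 and Ccl12 on chromosome 11 all fell with the antibody.

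Ccl12, a mouse monocyte chemoattractant, read 5.34 and 5.73 on IgG and 4.99 and 5.17 on anti-TGF-beta (-0.46 ± 0.15, adjusted p = 0.0247), all under the array medians. Its call was lost without DIO_IgG array b (-0.26, adjusted p = 0.33) or DIO_aTGFb array a (-0.37, adjusted p = 0.171). Ccl3, a macrophage inflammatory protein that binds Ccr1, went from 5.68 and 5.56 to 4.97 and 4.82 (-0.72 ± 0.15, adjusted p = 0.000768), all under the array medians. Its neighbour Ccl4, another macrophage inflammatory protein, had an antibody difference of -0.20 (adjusted p = 0.323) and an interaction of -0.47 (adjusted p = 0.0881). Ccl5, a T-cell and monocyte attractant read 8.03 on both IgG arrays and 7.80 and 7.65 on anti-TGF-beta (-0.30 ± 0.12, adjusted p = 0.0698). Ccl5 values did not overlap between the groups, but the difference missed the threshold. Ccl24, an eotaxin, passed in no comparison and had an antibody difference of 0.08.

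**Figure D2:**
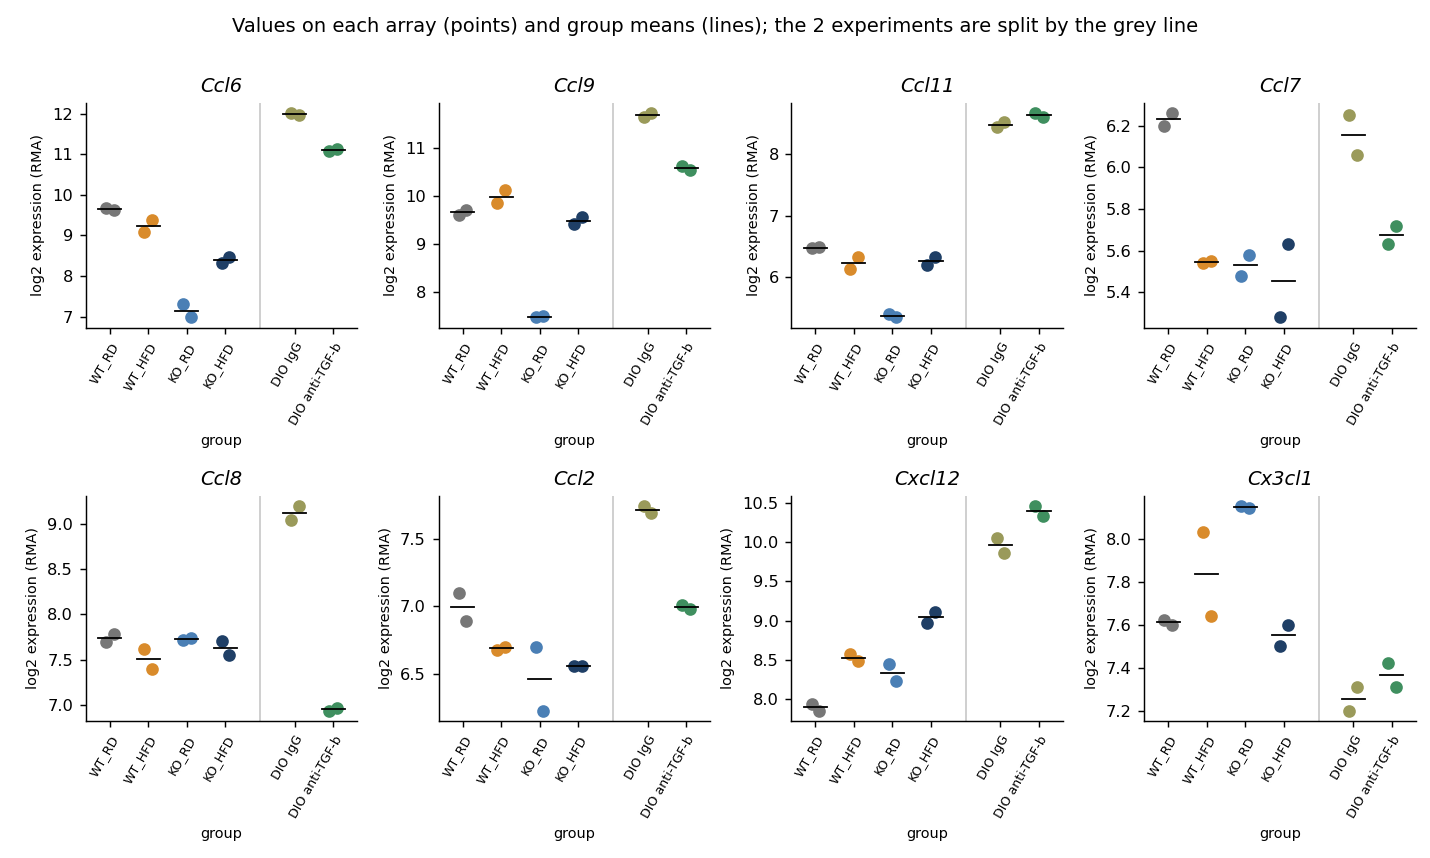
Log2 expression on each array (points) and group means (lines) of 8 ligands in the 6 groups, with the diet and genotype experiment left and the antibody experiment right of the grey line. Ccl6, Ccl9 and Ccl11 are lowest on the KO_RD arrays, Ccl7 is highest on the WT_RD arrays of its experiment, and Ccl8 drops from 9.04 and 9.19 to 6.94 and 6.97 with anti-TGF-beta.

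Macrophage markers moved in the same direction as this group of ligands in several comparisons, but not with HFD in wild type. Of 16 macrophage genes, 13 fell (12.6% of all genes did) and none rose with anti-TGF-beta (median -0.80). Their summed linear level was 47380 to 48230 on IgG and 22836 to 22982 on anti-TGF-beta arrays. Adgre1, which encodes a surface antigen of mouse macrophages, fell by 1.87 (adjusted p = 3.97e-13). Of 9 dendritic cell genes 7 fell, with sums of 21149 to 21862 on IgG and 11329 to 11496 on anti-TGF-beta arrays, and among them Itgax, which encodes CD11c, fell by 2.89. On RD, 12 of the 16 macrophage genes were lower and 1 higher with the Smad3-/- label (15.6% and 8.4% of all genes, median -1.24). Sums were 4443 to 4877 against 9523 to 9925 in wild type. On HFD, 11 of 16 were lower with that label (6.05% of all genes), with sums of 5708 to 6432 against 10116 to 11567. Of the 11 ligands 2 were lower there. With HFD in mice labelled Smad3-/-, 8 of the 16 rose and 1 fell (11.5% and 5.82% of all genes). With HFD in wild type, where Ccl6 and Ccl7 fell, 3 of the 16 rose and 3 fell (4.69% and 6.11% of all genes, median -0.02). None of the 16 lay under the array median on antibody arrays. In whole tissue, fewer cells of a type and less RNA per cell cannot be told apart, and the part of the macrophage markers in the ligand differences was not tested.

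Other lists moved in these comparisons too, and their counts stand beside the following shares of all genes. With HFD in wild type 4.69% rose and 6.11% fell, and in mice labelled Smad3-/- 11.5% rose and 5.82% fell. With the Smad3-/- label 8.4% were higher and 15.6% lower on RD, and 4.74% higher and 6.05% lower on HFD. With the antibody 11.7% rose and 12.6% fell. Of 15 immediate early genes, which respond to handling of tissue and include Fos and Egr1, 10 fell with HFD in wild type, 10 fell by genotype label on RD and 10 fell with the antibody. Their sums were 5770 to 5914 on wild-type RD arrays against 3058 to 3304 on the wild-type HFD and RD Smad3-/- arrays, and 19104 to 19793 on IgG against 11765 to 11842 on anti-TGF-beta arrays. On RD with the Smad3-/- label all 9 epididymis genes were higher (median 6.36) and 9 of 10 adipocyte genes lower (median -0.91). With HFD in mice labelled Smad3-/-, 8 of the 9 epididymis genes fell while all 15 muscle genes and 9 of 10 adipocyte genes rose. In wild type 4 of the 9 epididymis genes rose with HFD, with sums of 668 to 739 on RD and 10694 to 11630 on HFD. Of the 15 muscle genes 5 fell with HFD in wild type, with sums of 5695 to 6630 on RD and 1787 to 1813 on HFD. Of 13 fibroblast genes 6 fell with HFD in wild type, 6 were lower on RD with the Smad3-/- label and 7 rose with HFD there, with sums of 18823 to 19342 on RD arrays labelled Smad3-/- against 26387 to 29851 elsewhere among the diet and genotype arrays. Of 9 brown fat genes 6 were higher with the Smad3-/- label on RD (median 3.92), 7 on HFD (median 3.76) and 8 with the antibody (median 2.13), where sums were 1875 to 2000 on IgG and 22924 to 23358 on anti-TGF-beta arrays. Of 9 mesothelial genes 8 rose with the antibody, with sums of 2159 to 2223 against 3590 to 3741. A measure of RNA quality is the log2 signal of the 3′ minus the 5′ control probe set. For Gapdh it was 0.12 and 0.14 on the wild-type RD arrays and 0.28 to 0.50 on the other 6 diet and genotype arrays. For actin it was 0.77 and 0.80 against 0.90 to 1.12. In the antibody experiment it was 0.02 and 0.10 on IgG and 0.08 and 0.14 on anti-TGF-beta arrays for Gapdh. Actin gave 0.61 and 0.67 on IgG against 0.87 and 0.75 on anti-TGF-beta arrays, without overlap. The part of these lists and of this measure in the Ccl8, Ccl6, Ccl9, Ccl11, Ccl7, Ccl2, Ccr1 and Cxcl12 differences was not tested.

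**Figure D3:**
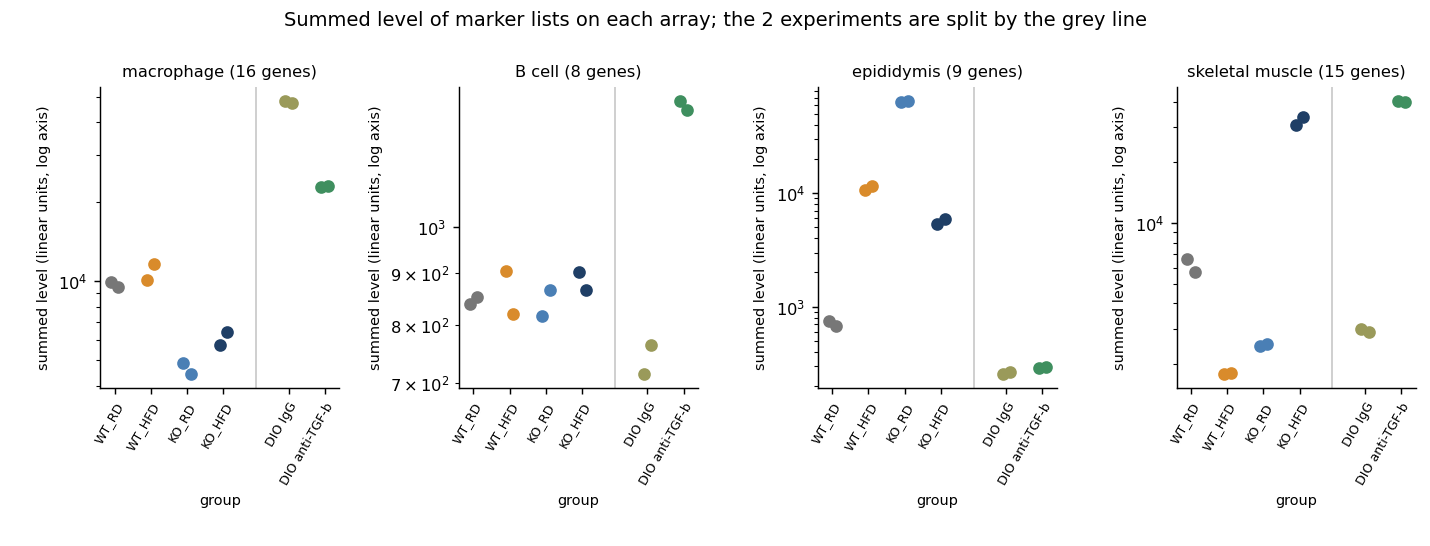
Summed linear level of 4 marker lists on each array (points, log axis) in the 6 groups, with the grey line between the experiments. Macrophage sums are lowest on the KO_RD arrays of the first experiment and 22836 and 22982 on anti-TGF-beta against 47380 and 48230 on IgG arrays, B cell sums rise from 715 and 764 to 1304 and 1331, and the epididymis list peaks on the KO_RD arrays.

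The 7 other CC ligands, most of which attract lymphocytes to skin, gut or lymphoid tissue, showed no call in any of the 5 comparisons of 2 groups. Their differences ranged from -0.33 to 0.36. Ccl17 and Ccl22, ligands of the T-cell receptor Ccr4, had antibody differences of 0.01 and -0.30 (adjusted p = 0.972 and 0.164), and Ccl22 read 6.20 and 6.00 on IgG and 5.96 and 5.64 on anti-TGF-beta. Ccl17 read 6.10 and 5.98 in wild type and 5.79 and 5.68 on RD arrays labelled Smad3-/-, which did not overlap but missed the threshold (-0.31, adjusted p = 0.142). Ccl1, a Ccr8 ligand, read 5.72 and 6.18 on RD and 6.27 and 6.34 on HFD in wild type (0.36, adjusted p = 0.191). The gut chemokine Ccl25, the skin chemokine Ccl27a and the Ccr6 ligand Ccl20 had differences between -0.20 and 0.16. Ccl28, a mucosal chemokine, had an interaction of -0.59 ± 0.20 (adjusted p = 0.0396), which came from 0.26 in wild type and -0.33 with the Smad3-/- label, neither past the threshold alone. It lost its call in 7 of the 8 fits that left out an array, all but the one without WT_HFD array b, with adjusted p of up to 0.212 without WT_HFD array a, and it was -0.05 (adjusted p = 0.884) with the mean of its probe sets.

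Ccl19 and Ccl21, the ligands of Ccr7 that draw lymphocytes and dendritic cells into lymphoid tissue, have probe sets that name several genes and so fell outside the 50. The shared Ccl21 probe set, which names 9 genes, read 9.23 and 9.11 on IgG and 10.38 and 10.31 on anti-TGF-beta, a rise of 1.17. It read 8.74 and 8.65 in wild type and 8.39 and 8.33 on arrays labelled Smad3-/- on RD, and 8.33 and 8.29 against 9.41 and 9.63 on HFD, so the order of the genotypes turned with the diet (interaction 1.55, adjusted p = 2.03e-08 over all probe sets). The shared Ccl19 probe set, which names 10 genes, rose by 0.38 with the antibody, from 6.62 and 6.80 to 7.04 and 7.14. Ccr7 itself was dim, at 5.09 and 5.34 on IgG and 4.85 and 5.09 on anti-TGF-beta, and its difference of -0.25 did not pass (adjusted p = 0.251).

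Among the 13 CXC ligands, Cxcl12 passed in the most comparisons, being higher with HFD, with the Smad3-/- label and with the antibody in all 5 comparisons by the probe set used. Cxcl12, which retains progenitor cells and lymphocytes through Cxcr4, read 7.93 and 7.85 in wild type on RD and 8.57 and 8.48 on HFD (0.64 ± 0.11, adjusted p = 0.000135). On arrays labelled Smad3-/- it read 8.44 and 8.23 on RD and 8.97 and 9.11 on HFD (0.70 ± 0.11, adjusted p = 2.21e-05). It was higher with the Smad3-/- label by 0.45 on RD (adjusted p = 0.0031) and 0.51 on HFD (adjusted p = 0.00189). Its interaction of 0.06 did not pass. With anti-TGF-beta it read 10.46 and 10.34 against 10.06 and 9.86 on IgG (0.44 ± 0.11, adjusted p = 0.00379). The RD genotype call was lost without KO_RD array a (0.34, adjusted p = 0.0595), and the antibody call without DIO_IgG array b (0.34, adjusted p = 0.0861) or DIO_aTGFb array a (0.38, adjusted p = 0.0685).

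These Cxcl12 results rest on 1 of its 3 probe sets. The second went the other way with the antibody, from 10.00 and 9.58 to 9.37 and 9.28 (-0.47 ± 0.14, adjusted p = 0.0145 over all probe sets), and passed in no other comparison. The third, at 5.55 to 6.61, passed in none. With the mean of the 3 probe sets the antibody difference of Cxcl12 was near 0 (adjusted p = 0.997), and the differences of 0.28, 0.16 and 0.22 for HFD in wild type and for genotype on RD and on HFD no longer passed. Its call for HFD in mice labelled Smad3-/- was kept. Why the probe sets differ was not tested.

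Cxcl13, which organises B-cell follicles through Cxcr5, had the largest rise of the family with anti-TGF-beta. It read 6.26 and 6.44 on IgG and 7.52 and 7.38 on anti-TGF-beta (1.10 ± 0.15, 2.14-fold, adjusted p = 2.04e-06). Its second probe set gave a larger rise of 2.64, from 5.59 and 5.80 to 8.49 and 8.17. That probe set also fell with HFD in wild type, from 7.10 and 6.97 to 5.41 and 5.56 (-1.55), and its interaction was 1.80 (adjusted p = 2.33e-06 over all probe sets). Genotype differences of that probe set were -0.95 on RD and 0.85 on HFD, and both passed. The probe set used for Cxcl13 passed in none of the diet and genotype comparisons, at 6.91 to 7.37 on all 8 arrays. Cxcr5, the receptor on B cells, rose by 0.65 ± 0.16 with the antibody (adjusted p = 0.00334), from 4.99 and 4.54 to 5.40 and 5.44, still under the array medians. Its call was lost without DIO_IgG array b (0.43, adjusted p = 0.111).

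B-cell markers moved with Cxcl13 and Cxcr5 under the antibody, where 11.7% of all genes rose and 12.6% fell. Of 8 B-cell genes 5 rose and none fell (median 0.86), with sums of 715 to 764 on IgG and 1304 to 1331 on anti-TGF-beta arrays. Ms4a1, which encodes CD20, rose by 2.07 and Cd79b by 1.16. In the IgG group 5 of the 8 lay under the array median, and 2 of the 8 did so in the anti-TGF-beta group. Of 11 lymphatic and lymph node stroma genes 5 rose and none fell, with sums of 1689 to 1855 against 2937 to 2973, whereas T and NK cell markers had 5 of 13 lower and none higher. The part of these lists in the Cxcl13, Cxcr5 and Ccl21 probe set differences was not tested.

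Of the interferon-inducible CXC ligands, which attract activated T cells through Cxcr3, Cxcl9 was highest on the HFD arrays labelled Smad3-/-. It read 8.61 and 8.63 there, against 7.91 and 8.00 on RD with that label (0.66 ± 0.12, adjusted p = 9.63e-05) and 7.94 and 8.32 in wild type on HFD (0.49 ± 0.12, adjusted p = 0.00431). The genotype call was lost without WT_HFD array a (0.30, adjusted p = 0.172). The interaction of 0.53 ± 0.16 (adjusted p = 0.0215) was lost without WT_RD array b, WT_HFD array a, KO_RD array a or KO_HFD array b, with adjusted p from 0.0651 to 0.187. With the antibody Cxcl9 did not differ measurably (-0.01 ± 0.12, adjusted p = 0.957).

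Cxcl10 read 4.90 and 4.94 on RD and 5.47 and 5.21 on HFD with the Smad3-/- label (0.42 ± 0.15, adjusted p = 0.0478). It fell with the antibody from 5.93 and 5.60 to 5.32 and 5.38 (-0.41 ± 0.15, adjusted p = 0.0415). Both calls sat near the threshold and all values lay under the array medians. The HFD call was lost on leaving out any of its 4 arrays, with adjusted p from 0.0502 to 0.389, and the antibody call without DIO_IgG array a (-0.25, adjusted p = 0.362) or without either DIO_aTGFb array (adjusted p = 0.155 for a and 0.0941 for b). Cxcl11 and the receptor Cxcr3 passed in no comparison, with antibody differences of -0.27 and -0.18.

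Of the neutrophil attractants that bind Cxcr2, Cxcl2 fell with anti-TGF-beta from 5.71 and 5.72 to 4.79 and 5.04 (-0.80 ± 0.14, 1.74-fold, adjusted p = 9.56e-05), from under the array median to further below it. Cxcl3 and Cxcl5 had antibody differences of -0.04 and -0.05 and passed nowhere. Cxcl1 did not pass by the probe set used (-0.08, adjusted p = 0.694), but its other 2 probe sets fell by 0.75 (6.87 and 6.89 to 5.97 and 6.29) and by 0.65 (7.20 and 7.37 to 6.51 and 6.75). Of 8 neutrophil markers 1 rose and 1 fell with the antibody (11.7% and 12.6% of all genes did), S100a9 with a difference of 0.54 and S100a8 with -1.99. Their summed linear level was 873 to 924 on IgG and 512 to 520 on anti-TGF-beta arrays. The part of these markers in the Cxcl2 and Cxcl1 differences was not tested. Cxcr2 was higher on RD arrays labelled Smad3-/-, at 6.32 and 6.46 against 5.87 and 5.89 in wild type (0.51 ± 0.15, adjusted p = 0.0094). Its call was lost without WT_RD array a (0.50, adjusted p = 0.061) or KO_RD array b (0.45, adjusted p = 0.0957).

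Cxcl16 is a membrane-bound ligand of Cxcr6 and a scavenger receptor, and Cx3cl1, or fractalkine, is the membrane-bound ligand of Cx3cr1. Among the diet and genotype arrays both were highest on the RD pair labelled Smad3-/-, where Ccl6 and Ccl9 were lowest. For genotype on HFD Cx3cl1, Cxcl16, Ccl6 and Ccl9 all had differences below 0 (-0.29, -0.18, -0.84 and -0.49). Cx3cl1 read 8.15 and 8.14 on RD arrays labelled Smad3-/-, above 7.62 and 7.60 in wild type on RD (0.54 ± 0.13, adjusted p = 0.00195) and above 7.50 and 7.60 on HFD with that label (-0.59 ± 0.13 for HFD, adjusted p = 0.000973). In wild type on HFD it read 8.03 and 7.64, and its interaction was -0.82 ± 0.18 (adjusted p = 0.00107). These 3 calls held when any 1 array was left out, and the HFD genotype difference of -0.29 (adjusted p = 0.188) passed without WT_HFD array b (-0.48, adjusted p = 0.0341). The other 3 probe sets of Cx3cl1 passed in none of these comparisons, although 1 of them fell by 0.57 with the antibody.

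Cxcl16 read 7.89 and 7.87 on RD with the Smad3-/- label, above 7.62 and 7.31 in wild type (0.41 ± 0.14, adjusted p = 0.0357) and above 7.48 and 7.39 on HFD with the label (-0.44 ± 0.14, adjusted p = 0.0313). Its interaction was -0.60 ± 0.20 (adjusted p = 0.039). The HFD call was lost on leaving out any of its 4 arrays (adjusted p from 0.0806 to 0.193), and the genotype call without WT_RD array b, KO_RD array a or KO_RD array b (adjusted p from 0.119 to 0.351). The interaction call was lost in 7 of 8 such fits, all but the one without WT_RD array a (adjusted p from 0.0593 to 0.217). With the mean of its probe sets none of the 3 calls of Cxcl16 passed (adjusted p = 0.0656 for HFD, 0.144 for genotype and 0.166 for the interaction). On RD with that label the epididymis list was high, and its part in the Cx3cl1 and Cxcl16 differences was not tested.

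Cxcl14, a chemokine made by fat and epithelium, read 6.68 and 6.57 on IgG and 6.88 and 6.87 on anti-TGF-beta (0.25, adjusted p = 0.17). Its dimmer second probe set rose by 0.58 with the antibody (4.95 and 4.64 to 5.23 and 5.53) and fell by 0.63 with HFD in mice labelled Smad3-/- (4.95 and 4.69 to 4.14 and 4.23). Cxcl15, Cxcl17 and Xcl1, which attracts dendritic cells through Xcr1, passed in no comparison, with differences between -0.21 and 0.25.

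Receptor calls were few. Of 17 receptors, none passed for HFD in mice labelled Smad3-/-, where 11.5% of all genes rose and 5.82% fell. None passed for genotype on HFD either (4.74% of all genes higher and 6.05% lower). With HFD in wild type 1 fell (5.88%, against 6.11% of all genes) and none rose (4.69% of all genes). On RD with the Smad3-/- label 2 were higher (11.8%, against 8.4%) and none lower (15.6% of all genes). With anti-TGF-beta 2 rose and 2 fell (11.8% each, against 11.7% and 12.6%). At an unadjusted limma p under 0.05, 2 and 1 of the 17 receptors passed in the comparisons with no call, against 4760 and 3680 of the 18194 genes.

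Cxcr4, the receptor of Cxcl12, read 7.93 and 7.89 on IgG and 7.23 and 7.21 on anti-TGF-beta (-0.69 ± 0.14, 1.61-fold, adjusted p = 0.000338). The fall went with a rise of Cxcl12 by the probe set used. On the diet and genotype arrays Cxcr4 lay between 5.30 and 5.77, under the array medians, and did not pass. Ccr3, the eotaxin receptor, read 4.85 and 5.18 on IgG and 4.51 and 4.50 on anti-TGF-beta (-0.51 ± 0.16, adjusted p = 0.0189), all under the array medians. Its call was lost without DIO_IgG array b (-0.35, adjusted p = 0.219) or without DIO_aTGFb array a or b (adjusted p = 0.0707 and 0.0747). Of 10 mast cell and eosinophil markers none passed in any comparison. In the same antibody experiment the eotaxins Ccl11 and Ccl24 did not pass.

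Cx3cr1, the fractalkine receptor of monocytes and resident macrophages, rose with anti-TGF-beta from 4.78 and 5.09 to 5.88 and 5.71 (0.86 ± 0.15, 1.82-fold, adjusted p = 5.11e-05), and the call held when any 1 array was left out. It was the receptor with the largest rise, on arrays where macrophage markers fell. All 4 values lay under the array medians, and its second probe set showed no such rise, at 3.71 and 4.33 on IgG and 3.87 and 4.21 on anti-TGF-beta (0.02, adjusted p = 0.967 over all probe sets). Its ligand Cx3cl1 had an antibody difference of 0.11 (adjusted p = 0.589).

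Ccr1, which binds Ccl3, Ccl5, Ccl6, Ccl7 and Ccl9, fell with HFD in wild type from 7.42 and 7.20 to 6.98 and 6.41 (-0.62 ± 0.18, adjusted p = 0.0188). The interaction was 0.70 ± 0.25 (adjusted p = 0.0472). The HFD call was lost without WT_RD array a (-0.51, adjusted p = 0.221) or WT_HFD array b (-0.33, adjusted p = 0.405), and the interaction without either of these or without KO_RD array a or KO_HFD array a (adjusted p from 0.188 to 0.312). Neither passed with the mean of its probe sets (adjusted p = 0.0623 and 0.0881). With the antibody Ccr1 showed 0.12 ± 0.18 (adjusted p = 0.697) while 5 of its ligands were at -0.30 or below. Ccr6, the receptor of Ccl20 on B cells and T helper cells, was higher on RD with the Smad3-/- label, at 7.41 and 7.31 against 7.05 and 6.68 (0.50 ± 0.15, adjusted p = 0.0133), with an interaction of -0.65 ± 0.21 (adjusted p = 0.0274). Its genotype call was lost without WT_RD array b (0.31, adjusted p = 0.256) or KO_RD array a (0.44, adjusted p = 0.0977), and its interaction without WT_RD array b, WT_HFD array a, KO_RD array a or KO_HFD array a (adjusted p from 0.093 to 0.198).

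The remaining receptors passed in no comparison. Cxcr6, a receptor of tissue T cells, came nearest to the threshold, with HFD in mice labelled Smad3-/-, at 6.96 and 6.85 on RD and 7.24 and 7.28 on HFD (0.35, adjusted p = 0.0679). Its values in wild type were 6.69 and 6.91 on RD and 7.06 and 7.05 on HFD, so the HFD arrays were the higher ones in both genotypes. Ccr4, Ccr8, Ccr9, Ccr10, Ccr1l1 and Xcr1 had differences between -0.18 and 0.30. Cxcr3 read 5.89 and 6.59 on the IgG arrays, a gap wider than any of its differences between groups.

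Ccr2, the receptor of Ccl2, Ccl7 and Ccl12, depended on the probe set. The one used for the gene read 6.82 and 7.20 on IgG and 6.76 and 6.79 on anti-TGF-beta (-0.23, adjusted p = 0.196), and it passed without DIO_IgG array a (-0.42, adjusted p = 0.0369). The other 3 probe sets fell by 1.13, 0.88 and 0.68, and the largest of these falls went from 7.28 and 7.00 to 5.89 and 6.12. The probe set with the fall of 0.88 overlapped between the groups, at 7.50 and 6.51 against 5.47 and 6.79. The mean of the 4 probe sets gave -0.73 (adjusted p = 0.000819). In the diet and genotype experiment none of the 4 passed in any comparison.

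**Figure D4:**
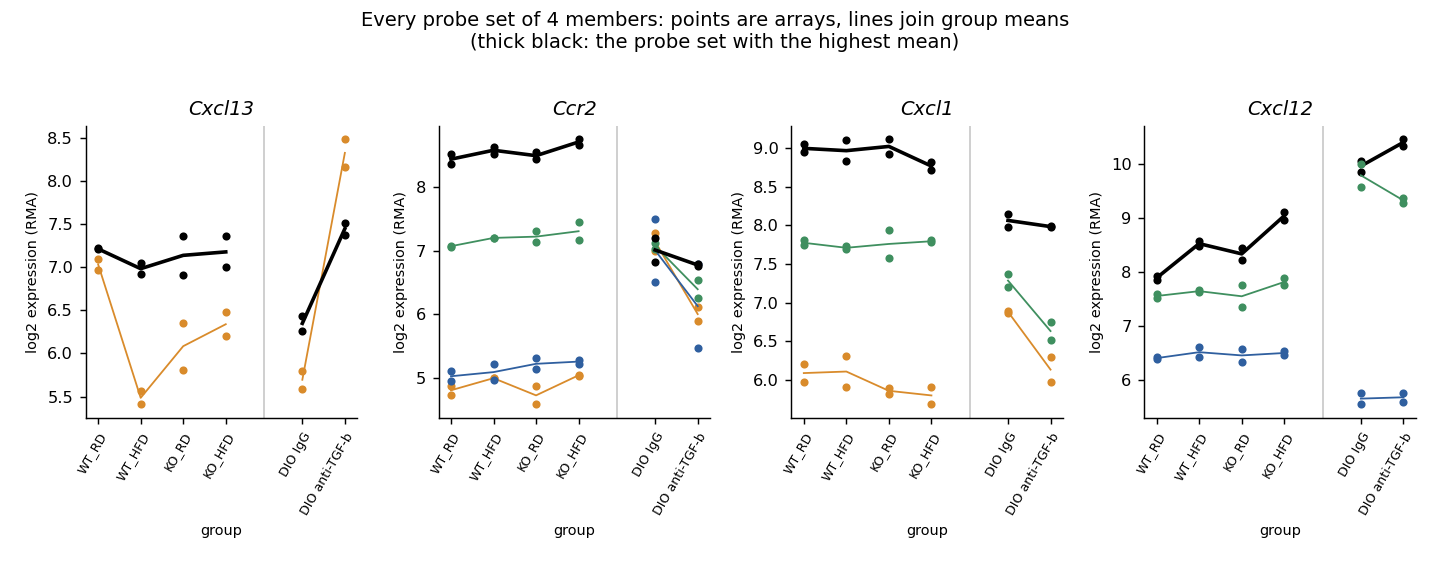
Log2 expression of every probe set of Cxcl13, Ccr2, Cxcl1 and Cxcl12 on each array (points) with lines through group means, the thick black line being the probe set used for the gene. The Cxcl12 probe sets part with the antibody, and 3 of the 4 Ccr2 lines drop by 0.68 to 1.13 where the black one drops by 0.23.

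Across the 18 members with several probe sets, 5 passed with the antibody solely by a probe set other than the one used (Ccr2, Cx3cl1, Cxcl1, Cxcl14 and Cxcl16), and Cxcl12 passed in opposite directions. Counting a member as called by any of its probe sets gave 19 members with the antibody in place of 15. The remaining 32 members have 1 probe set each.

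**Figure D5:**
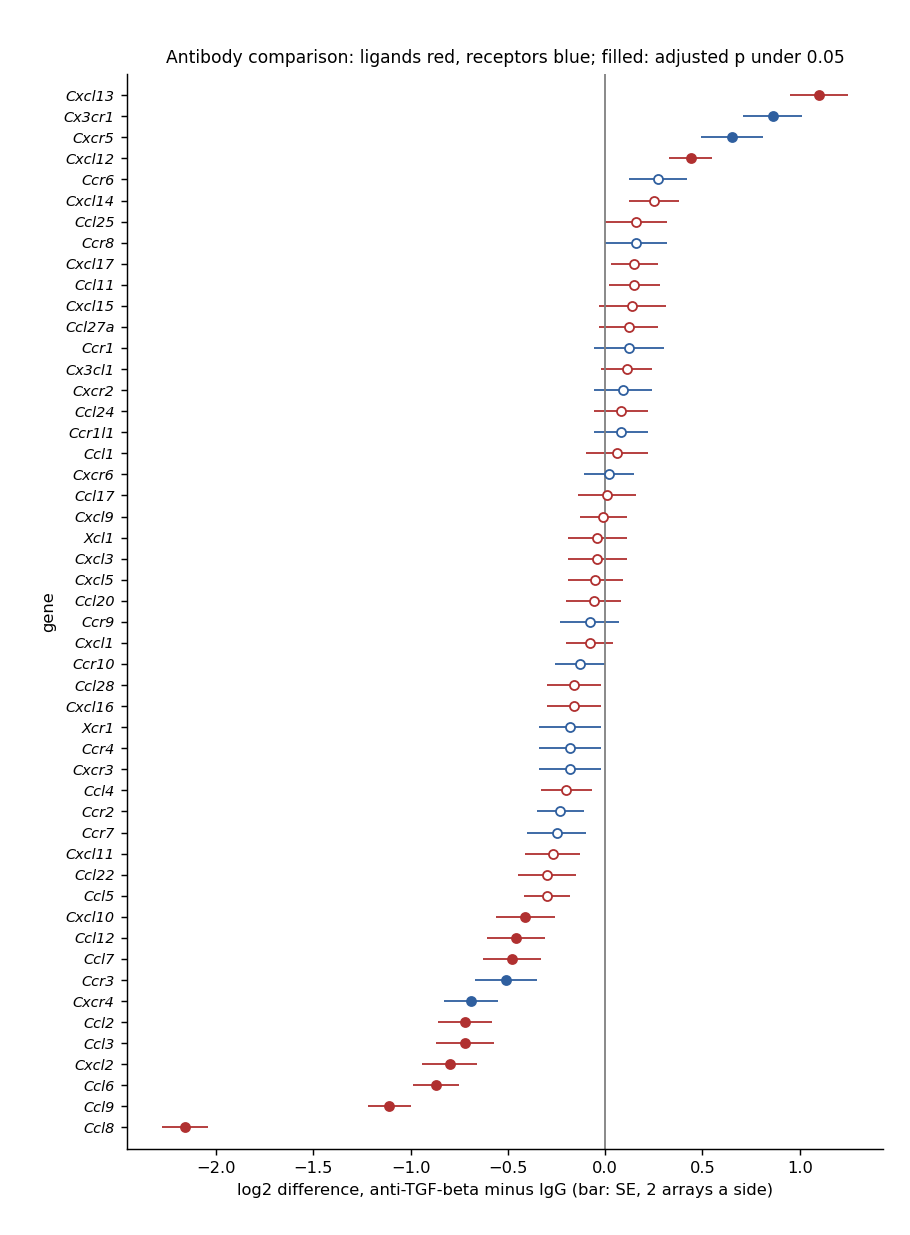
Log2 differences of the 50 members between anti-TGF-beta and IgG arrays, with ligands in red, receptors in blue, bars of 1 SE (2 arrays a side) and filled points where the limma adjusted p was under 0.05. Ccl8 is lowest at -2.16, Cxcl13 highest at 1.10, and 9 of the 11 filled points left of 0 are ligands.

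The values of ligands and their receptors with anti-TGF-beta stood as follows. Ccl2, Ccl7 and Ccl12 fell by 0.72, 0.48 and 0.46 with Ccr2 at -0.23 by the probe set used. Cxcl12 rose by 0.44 by the probe set used (its second probe set fell by 0.47) with Cxcr4 down by 0.69, and Cxcl13 and Cxcr5 both rose. By the probe sets used, Cxcl16 and its receptor Cxcr6 showed -0.16 and 0.02, and Ccl20 and Ccr6 -0.06 and 0.27. Xcl1 and Xcr1 showed -0.04 and -0.18, and none of these differences passed the threshold. The second probe set of Cxcl16 did pass and fell without overlap, with highest values of 7.27 on IgG and 6.68 on anti-TGF-beta arrays.

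The related pathway lists are set beside the same shares over all genes, which with the antibody were 11.7% higher and 12.6% lower. Of 15 chemokine-related receptors and scavengers, 5 fell and 2 rose with the antibody, led by C3ar1, a complement receptor (-1.53), Ccrl2 (-1.12) and C5ar1 (-1.12). Rarres2, which encodes the leukocyte attractant chemerin, and its receptor Cmklr1 were lower on RD with the Smad3-/- label (-2.68 and -2.16) and rose with HFD there by 2.27 and 1.56, the order seen for Ccl9. Of 38 genes of chemokine receptor signalling, 14 fell and 3 rose with the antibody, among them Rgs1, a regulator of G-protein signals in lymphocytes (-2.88), and 16 were lower and 3 higher on RD with the Smad3-/- label (15.6% and 8.4% of all genes).

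Of 33 inducers and regulators of chemokine genes, 6 fell and 3 rose with the antibody, near those shares, with Fos at -1.31, Irf8 at -0.94 and Tgfb1 at -0.83. On RD with the Smad3-/- label 10 were lower and 1 higher (15.6% and 8.4% of all genes), including the interleukin-1 receptor Il1r1 (-1.41) and Cebpb (-1.07). With HFD in wild type 5 fell and 1 rose (6.11% and 4.69% of all genes), with Cebpb at -1.57 and Irf7 at 0.90. Of 21 genes for adhesion and migration, 10 fell and 1 rose with the antibody, with the macrophage elastase Mmp12 at -2.96, the integrin chain Itgb2 at -1.83 and Cd44 at -1.46.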

How the data were processed

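Total RNA was hybridised to Affymetrix mouse arrays, 12 in all. Per the submitters' processing notes the authors deposited log2 expression values made by RMA in Partek (versions not given), per probe set. The labels do not say whether the 2 experiments were normalized together. Of 45101 probe sets, 34958 name 1 gene, 932 several and 9211 none in the platform annotation. Where several probe sets named 1 gene, the brightest on average stood for it, which left 18194 genes. Of these genes, 18032 matched the RefSeq gene table of GRCm38.p6 by gene ID.

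Group means were fitted over all 12 arrays in limma 3.58.1 (R 4.3.3; lmFit, contrasts, eBayes with an intensity trend), and two-sided p-values were adjusted by Benjamini-Hochberg across the 18194 genes and called under 0.05. The procedure was tested on simulated data. The interaction is the HFD difference with the Smad3-/- label minus that in wild type. Arrays are limited in precision by their number, 2 a group. Alternatives changed the trend, robustness, a filter under the 40th percentile, probe set averaging, scaling, arrays in the fit, replicate letters as a block, a minimum of 1.5-fold, and left out each array in turn. Same-lettered arrays correlated between -0.16 and 0.17 in their deviations, so letters were not taken as pairs.

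Named with array values were the members with the 8 highest and 8 lowest called differences of a comparison, a preset list, and up to 4 genes of each other list by p; ligands were set beside receptors. The members and lists were chosen with earlier results of these data known.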

Additional observations from a re-analysis of the deposited data

Results flagged for a closer look

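The response to HFD differed between mice labelled Smad3-/- and wild type, by the interaction test, for 10 members. The HFD difference with the Smad3-/- label minus that in wild type was above 0 for Ccl9 (interaction 1.69), Ccl6 (1.67), Ccl11 (1.14), Ccr1 (0.70), Ccl7 (0.61) and Cxcl9 (0.53). It was below 0 for Cx3cl1 (-0.82), Ccr6 (-0.65), Cxcl16 (-0.60) and Ccl28 (-0.59). For Ccl7 and Ccr1 the HFD difference that passed was the one in wild type (-0.69 and -0.62), with -0.08 and 0.09 with the Smad3-/- label. The HFD differences in wild type and with the label had opposite signs for Ccl6 (-0.41 and 1.26), Ccl11 (-0.25 and 0.89), Ccr1, Cx3cl1 (0.23 and -0.59), Ccr6 (0.30 and -0.35), Cxcl16 (0.15 and -0.44) and Ccl28 (0.26 and -0.33), and of these Ccl6 passed in both. Among the 10, the calls of Ccl6, Ccl9, Ccl11 and Cx3cl1 held when any 1 array was left out.

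A signal outside the 50 members came from probe sets that name several genes. The shared Ccl21 probe set rose by 1.17 with anti-TGF-beta and the shared Ccl19 probe set by 0.38 (4 of 4 arrays without overlap in each case).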

How the results depend on the processing

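Of 51 called pairs of member and comparison, 11 stayed called under every alternative tried. Apart from the test against a minimum of 1.5-fold, 26 stayed called under every alternative in which they were tested. These 26 include pairs of Ccl7, Ccl3, Cx3cr1, Cxcl2 and Cxcr4, which the fit without dim probe sets did not test. That filter used the mean over all 12 arrays, and Cxcr4 lay over the array median on every antibody array. The test against a minimum of 1.5-fold left 0 members for HFD in wild type, 2 for HFD with the Smad3-/- label and 3 for genotype on RD. It left 0 for genotype on HFD, 3 for the interaction and 3 for the antibody. Without dim probe sets the antibody count was 6 in place of 15; only 10916 genes and 21 members were tested there, and 9 of the called members (Ccl12, Ccl3, Ccl7, Ccr3, Cx3cr1, Cxcl10, Cxcl2, Cxcr4 and Cxcr5) were not among them. With the mean of its probe sets the antibody difference of Cxcl12 was reversed to -0.00; the opposite direction of its second probe set, given in the report, enters that mean.

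Leaving out 1 array gave 2 to 4 members for HFD in wild type (2 without WT_RD array a), 6 for HFD with the Smad3-/- label, 7 to 8 for genotype on RD, 3 to 4 for genotype on HFD, 5 to 8 for the interaction (5 without WT_RD array b, WT_HFD array a or KO_RD array a, and 6 without KO_HFD array b) and 10 to 15 for the antibody. With the replicate letter as a block the counts were 5, 7, 10, 4, 10 and 15 in the same order, against 4, 8, 10, 4, 10 and 15. Letters crossed in 1 group, an alternative chosen after seeing the data, gave 7 for HFD with the Smad3-/- label. Counting a member by any of its probe sets, also chosen after seeing the data, gave 5, 8, 10, 5, 7 and 19. Of 56 pairs of the listed members that were not called, 11 were called under at least 1 alternative. Dim members and 2 arrays a group limit what could be detected.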
